A study of Mus musculus with 12 samples.

Results

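The genes described are the mouse matrix metalloproteases (Mmp), the disintegrin-like metalloproteases with thrombospondin repeats (Adamts) and the tissue inhibitors of metalloproteases (Timp). Members were chosen by symbol: protein-coding genes of the GRCm38 annotation named Mmp, Adamts or Timp followed by a number. The rule found 46 genes, 23 Mmp, 19 Adamts and 4 Timp, among 21627 protein-coding genes. Each was described by its locus, the gene body with 10 kb added on each side, and by the open chromatin that was called there in alveolar type II (AT2) cells, the surfactant-making epithelial cells of the lung.

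Omni-ATAC-seq was used to map open chromatin: the transposase Tn5 enters isolated nuclei and inserts sequencing adapters where DNA is accessible. Each library was made from 50000 AT2 cells sorted by flow cytometry from BALB/c mice aged 6 to 8 weeks, at day 7 after 800000 labelled tumour cells had been given by tail vein. The tumour cells were 4T1, a mammary carcinoma line, or CT26, a colon carcinoma line, both syngeneic to BALB/c. They were taken from metastatic niches or from lung distal to these, which gave 4 groups (4T1 distal, 4T1 niche, CT26 distal and CT26 niche) of 3 biologically independent samples, each a pool of 5 lungs. Every group, distal lung included, therefore carried tumour cells, and no lung without them was part of the comparison.

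Matrix metalloproteases are zinc endopeptidases that are made as inactive proenzymes and cut collagens, laminins, elastin and cell-surface proteins once a propeptide is removed. Adamts enzymes are secreted and bind the matrix through their thrombospondin repeats; among their substrates are procollagens, the large proteoglycans versican and aggrecan, and von Willebrand factor. Timp proteins occupy the active site of these enzymes, and in the lung the balance of protease and inhibitor is known for its part in basement membrane turnover around the alveoli.

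The sequences below are the 250 bases upstream of the annotated start site (RefSeq, GRCm38.p6) of the genes on which the start-site results turn. They are printed 5′ to 3′ on the gene's strand, and capitals mark matches, on either strand, to 4 short motifs: TGANTCA (AP-1), AGGAAG (PEA3/ETS), GGGCGG (the GC box) and TATAAA (the TATA box). The first 4 are from genes whose start-site window was called mostly in niche libraries: Timp1 (chrX:20869916-20870165, plus strand), Adamts2 (chr11:50601835-50602084, plus strand), Adamts14 (chr10:61273420-61273669, minus strand) and Adamts12 (chr15:11064523-11064772, plus strand). Mmp14 (chr14:54431348-54431597, plus strand) was called in every library. Mmp13 (chr9:7272264-7272513, plus strand) and Mmp3 (chr9:7445572-7445821, plus strand) were called in none.
Timp1: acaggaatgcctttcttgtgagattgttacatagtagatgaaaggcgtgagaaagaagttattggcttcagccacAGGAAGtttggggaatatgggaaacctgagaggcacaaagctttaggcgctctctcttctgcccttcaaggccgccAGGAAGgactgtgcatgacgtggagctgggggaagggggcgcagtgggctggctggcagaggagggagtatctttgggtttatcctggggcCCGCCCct
Adamts2: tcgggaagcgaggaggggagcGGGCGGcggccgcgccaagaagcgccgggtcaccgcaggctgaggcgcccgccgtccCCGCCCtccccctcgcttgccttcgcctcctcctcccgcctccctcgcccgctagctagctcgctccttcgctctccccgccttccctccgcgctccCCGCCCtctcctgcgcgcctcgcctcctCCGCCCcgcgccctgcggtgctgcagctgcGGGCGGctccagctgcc
Adamts14: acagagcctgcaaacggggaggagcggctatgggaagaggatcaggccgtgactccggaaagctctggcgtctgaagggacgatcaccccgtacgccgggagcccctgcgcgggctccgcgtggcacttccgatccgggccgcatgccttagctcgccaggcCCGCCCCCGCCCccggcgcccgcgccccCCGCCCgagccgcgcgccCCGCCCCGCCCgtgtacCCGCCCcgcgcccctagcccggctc
Adamts12: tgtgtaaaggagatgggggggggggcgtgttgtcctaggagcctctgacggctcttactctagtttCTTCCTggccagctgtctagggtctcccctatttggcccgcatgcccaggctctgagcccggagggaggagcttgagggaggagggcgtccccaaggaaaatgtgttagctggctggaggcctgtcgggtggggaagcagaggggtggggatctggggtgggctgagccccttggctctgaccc
Mmp14: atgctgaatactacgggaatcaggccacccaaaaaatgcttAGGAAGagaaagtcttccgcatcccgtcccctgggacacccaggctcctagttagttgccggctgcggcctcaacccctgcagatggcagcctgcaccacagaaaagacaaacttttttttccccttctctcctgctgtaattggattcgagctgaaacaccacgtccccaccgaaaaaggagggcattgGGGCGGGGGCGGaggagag
Mmp13: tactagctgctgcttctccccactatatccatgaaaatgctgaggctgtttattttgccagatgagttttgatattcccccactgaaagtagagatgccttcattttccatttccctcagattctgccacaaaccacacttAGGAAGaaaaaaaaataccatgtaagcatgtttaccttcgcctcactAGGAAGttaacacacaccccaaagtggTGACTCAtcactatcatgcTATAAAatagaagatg
Mmp3: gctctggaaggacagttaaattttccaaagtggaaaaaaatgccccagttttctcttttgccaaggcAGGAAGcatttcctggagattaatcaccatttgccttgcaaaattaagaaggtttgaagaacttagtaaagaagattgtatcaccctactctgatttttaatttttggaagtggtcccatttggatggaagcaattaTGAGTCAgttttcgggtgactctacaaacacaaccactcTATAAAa

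The authors called peaks in each library separately, and a library held 42067 to 66911 peaks that covered 31.4 to 51.9 Mb. The 4T1 niche libraries held the longest lists and the CT26 distal libraries the shortest. The lists carry no read counts, so depth per library is unknown, and a longer list and more open chromatin cannot be told apart. Lengths in bp are therefore given as called, and the tests below use lengths scaled to each library's total covered length.

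Peaks of the 12 libraries fell into 172 distinct regions at the member loci, out of 83727 regions in all, where a region is a stretch of overlapping peaks. Of these, 70 (40.7%) were held by all 12 libraries, beside 42.1% of all regions, and 30 (17.4%) by 1 library only. A total of 120 regions lay within the member gene. The 4T1 distal libraries held 101 to 106 of the 172, the 4T1 niche libraries 131 to 138, the CT26 distal libraries 80 to 97 and the CT26 niche libraries 95 to 109. In the same order, the mean shares held were 60.3%, 77.9%, 51.7% and 58.1%, beside 67.3%, 77.1%, 54.7% and 61.8% of all regions. Peaks at member loci covered 89.9 kb ± 3.19 in 4T1 distal, 111 kb ± 3.55 in 4T1 niche, 70.0 kb ± 2.77 in CT26 distal and 83.9 kb ± 7.86 in CT26 niche (mean ± SD, n = 3 each). As a share of all covered bases these lengths were 0.204%, 0.219%, 0.211% and 0.208%, so the groups differed less in this share than in bp.

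A peak was called in all 12 libraries at 29 of the 46 loci and in 3 to 11 at a further 7. These 36 were tested (78.3%, beside 77.8% of the 21627 protein-coding loci). Mmp16, Adamts18 and Adamts20 had a peak in 1 or 2 libraries. No peak was called in any library at Mmp1a, Mmp1b, Mmp7, Mmp12, Mmp13, Mmp20 and Timp4. A locus that passed the filter through a single group had to differ between groups; of the 36, this applies most to Timp1, with a peak in 4 libraries.

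**Figure D1:**
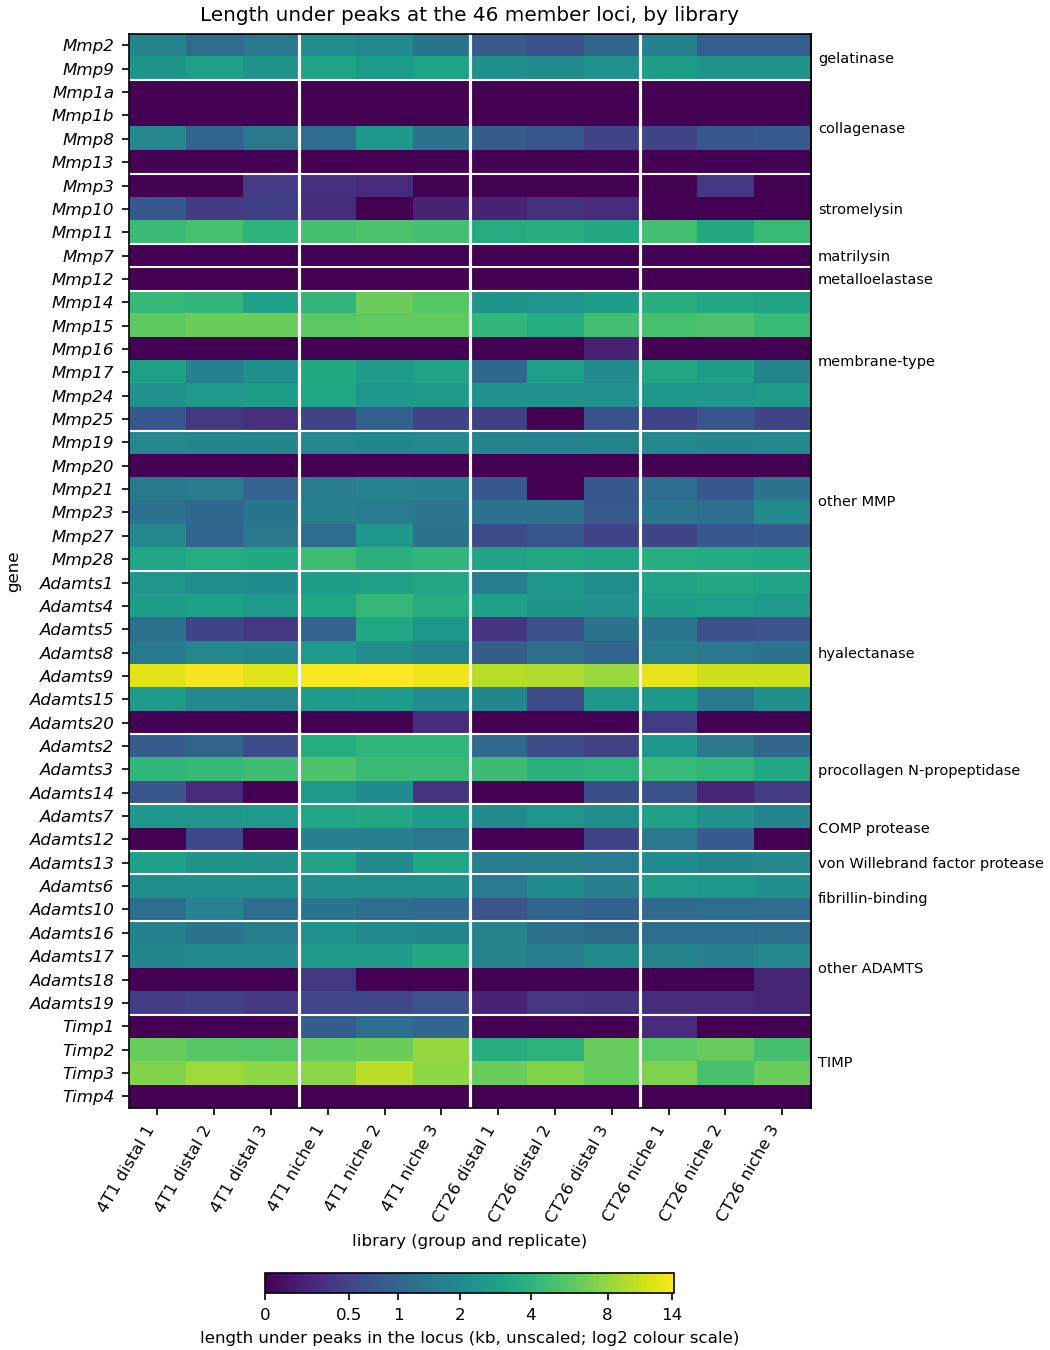
Length under peaks (kb, unscaled, log2 colour scale) at each of the 46 loci (rows, grouped by role) in each of the 12 libraries (columns, 3 per group). Adamts9 has the most bp in every library, 7 rows have no peak in any library, and the Timp1 row has a peak in the 3 4T1 niche libraries and 1 CT26 niche library.

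By role, the gelatinases, which digest denatured collagen and type IV collagen, had a peak in their locus in every library. At Mmp2 the only region held by all 12 libraries lay 1645 bp outside the gene and overlapped Lpcat2. The regions within Mmp2 (chr8:92839955-92840425 and chr8:92846869-92847703) were held by 6 libraries each. At Mmp9, 3 regions were held by all 12 libraries. They lay within the gene, 958 bp outside it (chr2:164938430-164939368) and 4705 bp outside it, over Slc12a5. Peaks of the region over Slc12a5 covered 1149 to 1475 bp. Peaks at Mmp2 covered 656 to 2142 bp and peaks at Mmp9 covered 2081 to 3048 bp. At Mmp9 the 4T1 distal libraries had 2381, 2891 and 2394 bp, the 4T1 niche libraries 3039, 2678 and 3048 bp, the CT26 distal libraries 2217, 2081 and 2255 bp, and the CT26 niche libraries 2817, 2375 and 2382 bp. At Mmp2 the same groups had 1843, 1162 and 1436 bp, then 2142, 2037 and 1331 bp, then 824, 656 and 1035 bp, and last 1681, 893 and 883 bp. In 4T1 the niche and distal lengths overlapped at both genes, and in CT26 they overlapped at Mmp2. At Mmp9 the CT26 niche libraries all lay above the distal ones in bp and all below them after scaling.

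Among the membrane-type enzymes, which act at the cell surface, Mmp14 activates the Mmp2 proenzyme. Peaks covered 12.2% of the Mmp14 locus, flanks included, on average over the libraries and 12.6% of the Mmp15 locus. Only Mmp11, a stromelysin-like enzyme, had a larger share (14.8%) among the 46. Regions at the Mmp11 locus also lay over neighbouring genes. The widest, of 2035 bp, overlapped Chchd10, and all regions downstream of Mmp11 overlapped Smarcb1. Mmp14 had 4303, 4157 and 2956 bp in 4T1 distal, 4077, 6273 and 5566 bp in 4T1 niche, 2367, 2429 and 2777 bp in CT26 distal, and 3664, 3317 and 3093 bp in CT26 niche. The CT26 niche libraries all lay above the CT26 distal ones before scaling, whereas in 4T1 the groups overlapped. After scaling, the Mmp14 difference was 0.24 ± 0.14 (log2, SE) in 4T1 and 0.11 ± 0.14 in CT26, and neither passed (limma, adjusted p = 0.456 and 0.688).

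Of the Adamts enzymes, Adamts9, which cleaves versican, had the most regions of any member, 19, of which 9 were held by all 12 libraries, and its peaks covered 8267 to 14261 bp. Timp3, the inhibitor that stays bound to the matrix, followed with 14 regions and 5022 to 9919 bp, and Timp2, the partner of Mmp14 in Mmp2 activation, had 9 regions and 3555 to 8172 bp. Timp3 had 7304, 8456 and 7806 bp in 4T1 distal and 7667, 9919 and 7859 bp in 4T1 niche, with overlap. The Timp3 locus lies inside the gene Syn3, so its regions are shared with that gene. Timp2 had 6187, 5626 and 5547 bp in 4T1 distal, 5977, 6440 and 8172 bp in 4T1 niche, 3555, 3973 and 6245 bp in CT26 distal, and 5738, 6193 and 4956 bp in CT26 niche, and the site groups overlapped in both models.

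The start-site windows, 250 bases before to 50 after the start, were available for 32 of the members, with 35 windows in all. The 14 members without one were Adamts4, Adamts5, Adamts6, Adamts7, Adamts8, Adamts10, Adamts15, Adamts16, Adamts19, Mmp2, Mmp9, Mmp16, Mmp17 and Mmp19. Of the 35 windows, 9 were held by all 12 libraries (25.7%), beside 53.2% of the 21044 windows of all genes, and 15 by none (42.9%, beside 37.9%). The 9 always called were those of Adamts1, Adamts3, Adamts9, Adamts17, Mmp14, Mmp15, Mmp28, Timp2 and Timp3.

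In 4T1, 4 windows were called in all 3 niche libraries and in at most 1 distal library (4 of 35, beside 0.822% of all windows). The Timp1 window was called in 3 of 3 4T1 niche libraries, where peaks covered 186, 300 and 274 of its 300 bases, and in none of the other 9. The Adamts2 and Adamts14 windows were each called in all 3 niche libraries of both models and in 1 of 3 distal libraries of each. The Adamts12 window was called in 3 of 3 4T1 niche and 2 of 3 CT26 niche libraries, beside 1 of 3 and 0 of 3 distal libraries. The window of Mmp27, a little-studied enzyme of the chromosome 9 cluster, went the other way in 4T1. It was called in 3 of 3 distal and 1 of 3 niche libraries, and in none of CT26. Of all windows, 0.133% were held by all 3 4T1 distal libraries and at most 1 4T1 niche library. With every list shortened to the 42067 peaks of highest −log10 p, none of the 4 niche windows kept calls in all 3 4T1 niche libraries. Timp1 then had no peak in any library. In 4T1 niche, the Adamts12 locus had 361, 0 and 484 bp and the Adamts14 locus 292, 0 and 0 bp. The Adamts2 locus had 537, 2323 and 471 bp, of which replicates 1 and 3 kept only the region 167010 bp from the start.

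**Figure D2:**
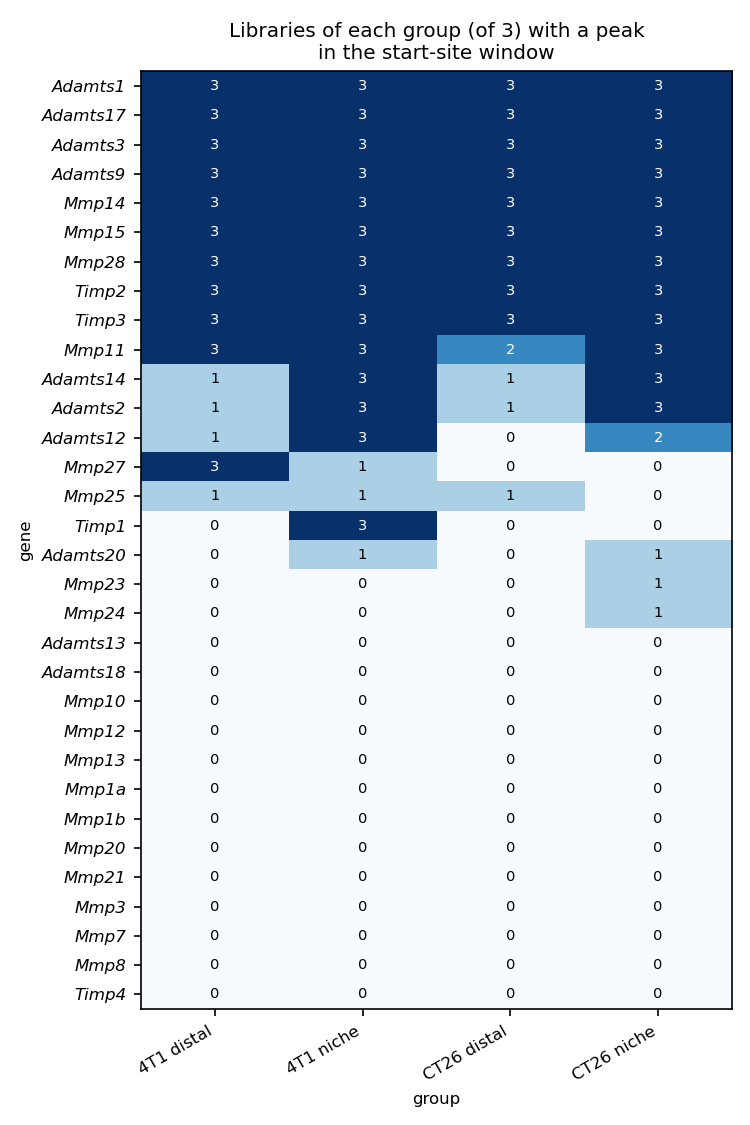
Number of libraries of each group (of 3) with a peak in the start-site window of each of the 32 members that have one; for a gene with several windows the highest number is shown. The top 9 rows are called in every library, and Timp1 is called in 3 of 3 4T1 niche libraries only.

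The printed sequences differ between the windows that were always called and those never called. An AP-1 match was found in 8 of the 35 member windows (22.9%, beside 6.17% of all 21044 windows), and all 8 were among the 15 that no library held; of all windows held by no library, 9.05% had the match. They belong to Mmp1a, Mmp1b, Mmp3, Mmp7, Mmp10, Mmp12, Mmp13 and Mmp20, all in the cluster on chromosome 9. A TATA box match was found in 9 windows (25.7%, beside 11.7%), 8 of them held by no library, as in the Mmp13 and Mmp3 sequences above, and 1 by all 12. Of all windows held by no library 21.3% had this match, and of those held by all 12 libraries 5.16%. GC box matches were in 16 windows (45.7%, beside 43%): 8 of the 9 held by all 12 libraries, beside 64.6% of all such windows, and 1 of the 15 held by none, beside 12.8%. The Adamts2 and Adamts14 sequences hold 5 and 6 GC box matches, Timp1 holds 1 with 2 PEA3/ETS matches, and Adamts12 holds 1 PEA3/ETS match only. PEA3/ETS matches were in 14 windows (40%, beside 28.7%). A match describes letters in a window and no binding was measured.

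A run of 10 Mmp genes lies in 427.1 kb of chromosome 9 (chr9:7272514-7699585, GRCm38): Mmp13, Mmp12, Mmp1b, Mmp3, Mmp1a, Mmp10, Mmp8, Mmp27, Mmp20 and Mmp7. They include the collagenases, which cut fibrillar collagen, and the macrophage elastase Mmp12. Peaks of the 12 libraries formed 10 regions in the whole stretch, 5 of them within a member locus. Of these, 2 regions were held by all 12 libraries (chr9:7569898-7573405 and chr9:7594889-7595686). The first, of 3508 bp when merged over libraries, spans the start of Mmp27 and lies in the Mmp8 locus. In CT26 its peaks covered 500 to 827 bp. The Mmp27 start-site window was called in 3 4T1 distal libraries, 1 4T1 niche library and no CT26 library. A region between Mmp10 and Mmp8 (chr9:7526389-7527465), outside the 10 kb flanks, was held by all 6 libraries of 4T1 and by none of CT26.

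Niche and distal AT2 cells were first compared within the 4T1 model. In this model 2 of the 36 tested loci passed an adjusted p of 0.05, both with more length under peaks in the niche, beside 0.624% of the 16819 loci tested (0.595% higher): Timp1, which inhibits most soluble matrix metalloproteases, and Adamts2, the procollagen N-proteinase that trims type I collagen. Timp1 had no peak in any of the 3 distal libraries and 857, 1192 and 1011 bp in the niche libraries, a mean of 1020 bp ± 168 (SD, n = 3). The groups did not overlap (limma, adjusted p = 0.00365), but a group without any peak has no spread, which can make this p too small, and no fold is given against it. Timp1 also met the filter of 3 libraries through the 4T1 niche libraries, so its difference was set in part by the filter. With a peak required in at least 6 libraries, 1 of 34 members passed, Adamts2, beside 45 of 16400 loci. In such bulk libraries, a site open in a few cells and weaker opening in many cells cannot be told apart.

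Adamts2 had 837, 1011 and 596 bp in the 4T1 distal libraries and 3583, 4069 and 4071 bp in the niche libraries, so that every niche library lay above every distal one. The difference was 1.56 ± 0.22 (SE) on the log2 scale of scaled length plus 500 bp (limma, adjusted p = 0.00741). Without the 4T1 niche replicate 2, both loci had an adjusted p of 0.0515. When every list was shortened to 42067 peaks, those with the highest deposited −log10 p, Timp1 had no peak in any library and Adamts2 differed by 0.30 ± 0.37 (limma, adjusted p = 0.895).

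**Figure D3:**
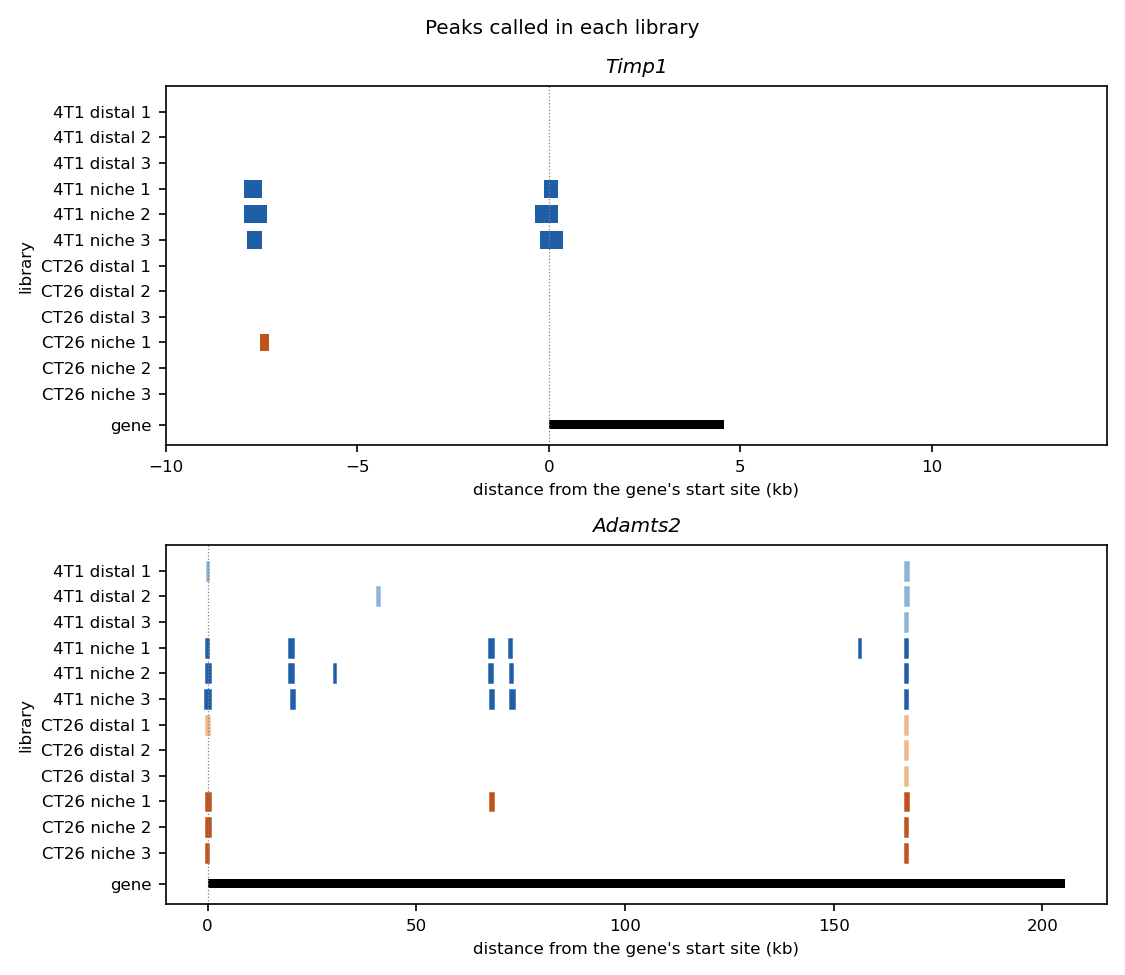
Peaks called in each library (rows) at the Timp1 and Adamts2 loci, by distance from the start site in kb, with the gene as a black bar. At Timp1, peaks lie over the start site in the 3 4T1 niche libraries only; at Adamts2, 1 region within the gene is held by all 12 libraries and 3 by all 4T1 niche and no 4T1 distal libraries. Peaks of Adamts2 are outlined so that short ones can be seen.

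Regions present in all 3 niche libraries and absent from all 3 distal libraries of a model are here called niche-only. By this rule 13 of the 172 member regions (7.56%) were niche-only in 4T1, beside 2.59% of all regions, and 0 were distal-only, the opposite case, beside 0.143%. No member region was held by all 6 libraries of 4T1 and none of CT26 (beside 0.299% of all regions), or the reverse (beside 0.00239%). The 2 at Timp1 lay over the start site (chrX:20869799-20870540) and 7299 bp upstream (chrX:20862201-20862867); both are also inside the gene Syn1, which contains Timp1. The 3 at Adamts2 lay within the gene, 19404, 67461 and 72187 bp from its start (chr11:50621489-50622804, chr11:50669546-50670566 and chr11:50674272-50675409). The region over the Adamts2 start site (chr11:50601586-50602672) was not niche-only: its peaks covered 275, 0 and 0 bp in 4T1 distal, 547, 938 and 1087 bp in 4T1 niche, 600, 0 and 0 bp in CT26 distal, and 899, 945 and 397 bp in CT26 niche. Adamts2 also had a region at 167010 bp from the start that all 12 libraries held.

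The other 8 niche-only regions lay at Mmp and Adamts loci that did not pass. Adamts12, which degrades cartilage oligomeric matrix protein, had 2 within the gene (chr15:11150932-11151422 and chr15:11158881-11159533). Adamts3 (chr5:89748296-89748774), Adamts4 (chr1:171256793-171257447), Adamts16 (chr13:70794101-70794582) and Adamts17 (chr7:66867947-66868888) each had 1 within the gene. The Adamts13 locus had 1 downstream of the gene and within Cacfd1 (chr2:27017897-27018212), and Mmp8 and Mmp27 shared 1 within Mmp8 (chr9:7562221-7562662). In bp as called, the 4T1 niche libraries lay above all distal ones at Adamts16 (1725, 1344 and 1613 bp against 2298, 1997 and 1800 bp) and at Adamts4 (2773, 2960 and 2634 bp against 3205, 4265 and 3604 bp), but not after scaling. At Adamts13 they overlapped (2979, 2336 and 2342 bp against 3110, 2076 and 3180 bp). The niche-only peaks were weak: over the 13 regions the authors' fold enrichment was 2.61 to 5.25, and by the authors' −log10 p they ranked between the 0.268 and the 48.0 percentile of the list that called them. With lists of equal length, 1 of 111 member regions was niche-only in 4T1 (0.901%, beside 0.924%), a region in the Mmp21 locus (chr7:133668736-133669512).

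Large differences that did not pass were measured at 3 more Adamts genes in 4T1. Adamts12 had 0, 543 and 0 bp in the distal and 1696, 1671 and 1408 bp in the niche libraries; the groups did not overlap (1.53 ± 0.46, limma, adjusted p = 0.198). Adamts14, a procollagen N-propeptidase like Adamts2, had 736, 254 and 0 bp against 2665, 2093 and 345 bp, with overlap through niche replicate 3 (1.14 ± 0.49, limma, adjusted p = 0.341). Adamts5, an aggrecanase, had 1281, 518 and 350 bp against 975, 3241 and 2447 bp (0.97 ± 0.37, limma, adjusted p = 0.309). Adamts12, Adamts14 and Adamts5 were singled out after their values were seen. Adamts3, the remaining procollagen N-propeptidase, had 4160, 4351 and 4708 bp against 5235, 4540 and 4466 bp and differed by −0.09 ± 0.10.

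**Figure D4:**
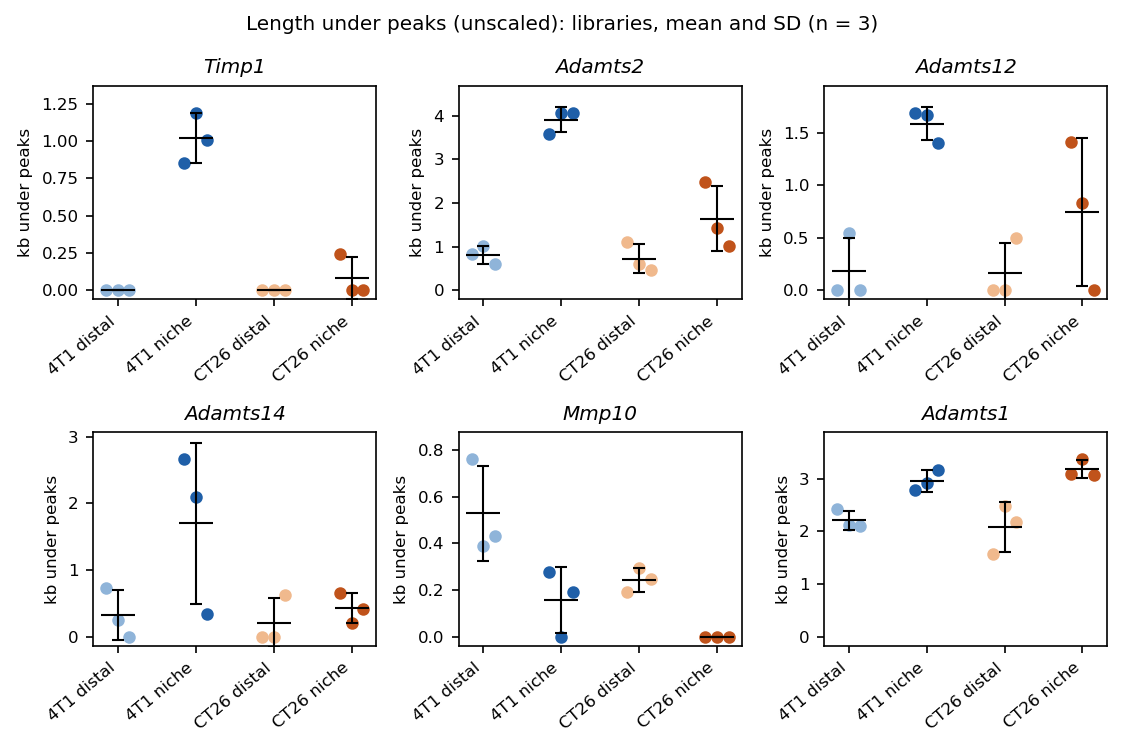
Length under peaks (kb, unscaled) in each library (points), with the mean and SD of the 3 libraries of each group (bars), at 6 loci. The 4T1 niche points lie above the 4T1 distal points at Timp1, Adamts2, Adamts12 and Adamts1, and the CT26 niche points are all at 0 at Mmp10.

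Over all 36 tested members, the scaled 4T1 difference was positive at 22 (61.1%, beside 38.6% of all loci), with a median of 0.07, beside −0.05 over all loci. The median was negative with stricter lists. At a −log10 q of at least 5 it was −0.08 (12 of 30 positive), beside −0.04 over all loci. With lists of equal length it was −0.06 (12 of 32 positive), beside −0.002. With all peaks, 8 members (22.2%) had an unadjusted p under 0.05 (limma), beside 13.4% of all loci. Without scaling 3 passed, all higher in the niche, beside 3.36% of all loci. The scaled lengths of the niche libraries lay above all distal ones at 4 members, beside 8.09% of all loci, and below all at 6, beside 19.5%. The 4 were Timp1, Adamts2, Adamts12 and Adamts17. In bp as called, 12 members lay higher in all niche libraries, beside 27.5%, and 1, Mmp10, lower in all, beside 0.916%.

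In the CT26 model, 0 of the 36 members passed (limma, adjusted p), beside 0.672% of all loci, and 6 (16.7%) had an unadjusted p under 0.05, beside 18.99% of all loci. Without scaling 3 passed, all higher in the niche, beside 12% of all loci. The smallest p was at Mmp10, a stromelysin that can activate other Mmp proenzymes, where its 1 region lay 2074 bp downstream of the gene (chr9:7512316-7513104). The CT26 distal libraries had 191, 294 and 246 bp there and the 3 niche libraries had no peak (limma, adjusted p = 0.0988), the only member region that was distal-only in CT26 (1 of 172, 0.581%, beside 0.136%). Timp3 had 6325, 7286 and 6089 bp in CT26 distal and 7175, 5022 and 6353 bp in CT26 niche (−0.36 ± 0.12, limma, adjusted p = 0.164). Adamts3 had 4564, 3817 and 3958 bp against 4433, 4115 and 3307 bp (−0.31 ± 0.10, limma, adjusted p = 0.138). The groups of both genes overlapped in bp, and the niche values lay below the distal ones only after scaling.

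At Timp1 the CT26 distal libraries had no peak and the niche libraries 244, 0 and 0 bp, with the peak of niche replicate 1 in the upstream region (limma, adjusted p = 0.598). Adamts2 had 1099, 596 and 473 bp in CT26 distal and 2469, 1423 and 1021 bp in CT26 niche, with niche replicate 3 below distal replicate 1; the difference of 0.62 ± 0.22 did not pass (limma, adjusted p = 0.17). Adamts12 had 0, 0 and 500 bp against 1413, 830 and 0 bp. Adamts14 had 0, 0 and 631 bp against 659, 209 and 418 bp. Adamts4, an aggrecanase, held the only CT26 niche-only member region (chr1:171262553-171264309, 286 bp from the gene; 1 of 172, 0.581%, beside 1.56%), which 2 of 3 4T1 distal and 3 of 3 4T1 niche libraries also held. The median over the 36 members was 0.03 in CT26, beside −0.04 over all loci, and 20 were positive (55.6%, beside 42.1% of all loci). At a −log10 q of at least 5 the median was −0.04 (12 of 30 positive), beside −0.09 over all loci. Scaled niche lengths lay above all distal ones at 0 members, beside 6.76% of all loci, and below all at 7, beside 15.3%; in bp the counts were 11, beside 33.5%, and 1, beside 0.44%.

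**Figure D5:**
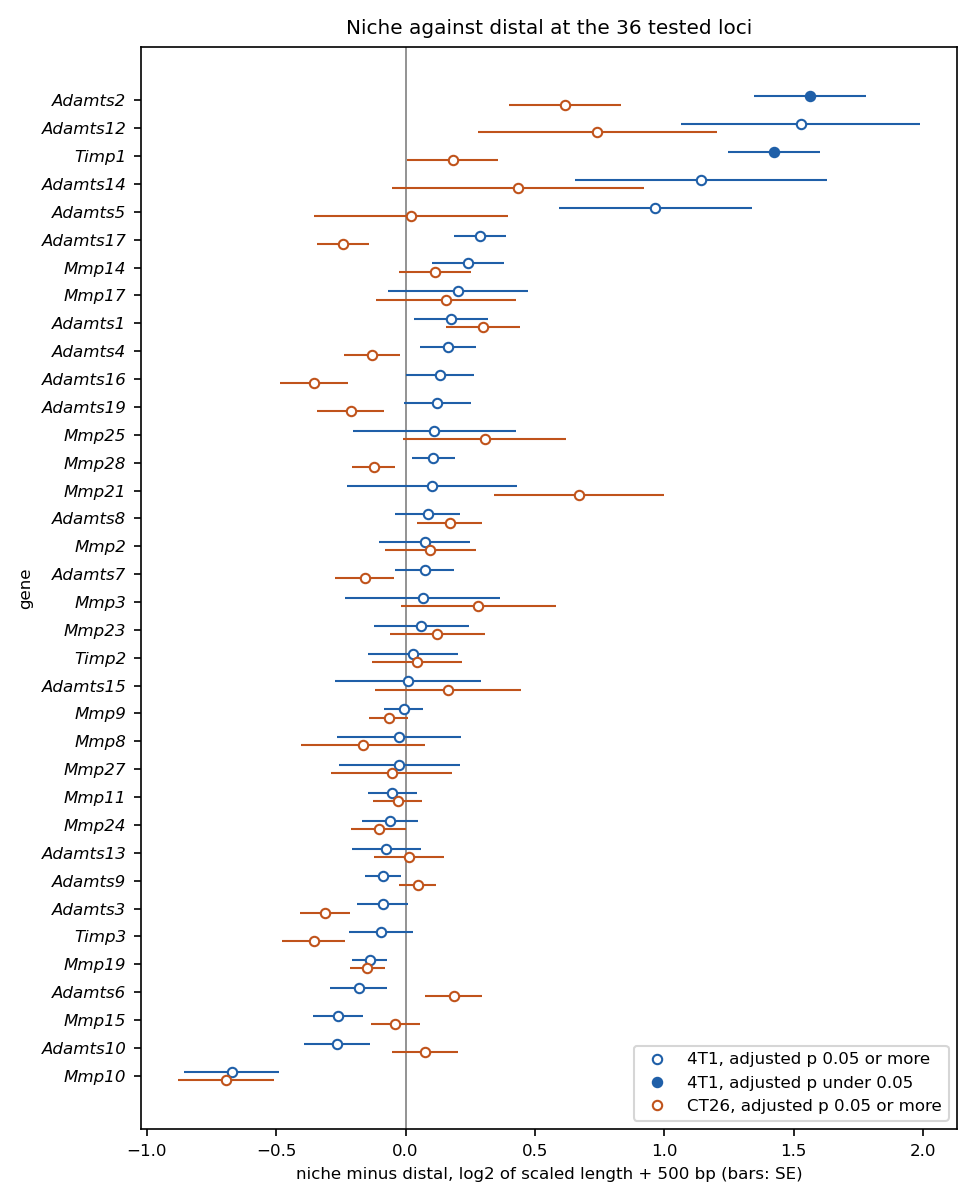
Niche minus distal difference at the 36 tested loci (rows, ordered by the 4T1 value) on the log2 scale of scaled length plus 500 bp, with SE bars, for 4T1 (blue) and CT26 (orange); filled points have an adjusted p under 0.05. Only Adamts2 and Timp1 in 4T1 are filled, and the Timp1 and Mmp10 points depend on the added 500 bp, since a group of each has no peak.

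Averaged over both models, niche and distal libraries differed at 3 of the 36 loci, 2 higher and 1 lower in the niche, beside 2.38% of all loci (1.5% higher and 0.886% lower). Adamts2 was higher by 1.09 ± 0.15 (limma, adjusted p = 0.007) and Timp1 was higher (limma, adjusted p = 0.0121). The Timp1 difference came through the 4T1 niche libraries, by which the locus also met the filter. Mmp10 was lower: the 4T1 distal libraries had 761, 390 and 433 bp and the 4T1 niche libraries 279, 0 and 191 bp, and with the CT26 values above, all distal libraries of a model lay above all its niche libraries (limma, adjusted p = 0.0272). The Mmp10 call was lost when any of 6 libraries was left out (4T1 distal 1 or 3, 4T1 niche 2 or 3, CT26 distal 2 or CT26 niche 1), with an adjusted p of 0.053 to 0.0681, and with lists of equal length (0.0528). Without scaling, 11 members passed, 10 higher, beside 23.5% of all loci, and 1 lower, beside 0.149%, while the median of all loci moved from −0.04 to 0.154.

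Whether the niche difference itself depended on the model was tested by the interaction term. Of the 36 members 0 passed (limma, adjusted p), beside 0.0595% of all loci, and 5 (13.9%) had an unadjusted p under 0.05, beside 8.81% of all loci. The smallest p values were at Timp1 (limma, adjusted p = 0.118), Adamts17 (adjusted p = 0.27) and Adamts2 (adjusted p = 0.36). At Adamts2 the CT26 difference was below the 4T1 one by −0.94 ± 0.31. The Timp1 and Adamts2 differences passed in 4T1 and not in CT26, but were not shown to differ between the models. Without limma's trend the Timp1 interaction passed (adjusted p = 0.0251).

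The models were also compared over both sites, where 5 members passed, 3 higher and 2 lower in CT26, beside 24.1% of all loci (19.2% higher and 4.92% lower). With lists of equal length 0 of 32 members passed (limma, adjusted p), beside 50 loci higher and 44 lower of 16056. Of the 32, 6 had an unadjusted p under 0.05. Without CT26 niche replicate 2 the members that passed were 2, Mmp19 and Timp1, beside 2211 loci higher and 622 lower of 16796. Tumour model and list length cannot be told apart in this comparison, since the CT26 lists are shorter. Timp1 (limma, adjusted p = 0.00976) and Mmp27 (−0.55 ± 0.17, adjusted p = 0.0346) were lower in CT26. Here too Timp1 had met the filter through the 4T1 niche libraries. Mmp27 had 1903, 990 and 1416 bp in 4T1 distal and 1161, 2530 and 1280 bp in 4T1 niche, beside 595, 733 and 500 bp in CT26 distal and 517, 746 and 827 bp in CT26 niche, so all 4T1 libraries lay above all CT26 libraries. Mmp8 has the same lengths in all but 1 library, since it shares 2 regions with Mmp27, and it did not pass (−0.49 ± 0.17, limma, adjusted p = 0.0556).

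The 3 members higher in CT26 passed on scaled lengths and not without scaling. Mmp19, an enzyme of basement membrane components, had 1883, 1878 and 1828 bp in 4T1 distal and 1888, 1880 and 1916 bp in 4T1 niche, then 1759, 1740 and 1800 bp in CT26 distal and 1918, 1841 and 1918 bp in CT26 niche (0.26 ± 0.05, limma, adjusted p = 0.00915). Its 1 region is 3041 bp from the gene and overlaps Tmem198b and Dnajc14. Without scaling its difference was −0.03, the reverse direction. Adamts6, which acts on fibrillin microfibrils, had 2182, 2131 and 2221 bp in 4T1 distal, 2172, 2134 and 2120 bp in 4T1 niche, 1515, 2108 and 1670 bp in CT26 distal, and 2694, 2556 and 2238 bp in CT26 niche (0.26 ± 0.08, limma, adjusted p = 0.0318; −0.04 without scaling). Adamts1, a versican-cleaving enzyme, had 2418, 2117 and 2096 bp in 4T1 distal, 2776, 2914 and 3170 bp in 4T1 niche, 1569, 2486 and 2183 bp in CT26 distal, and 3090, 3369 and 3070 bp in CT26 niche (0.31 ± 0.10, limma, adjusted p = 0.0422). In bp, Adamts1 lay higher in all niche than in all distal libraries of both models, but its scaled niche difference did not pass over both models (0.24 ± 0.10, limma, adjusted p = 0.174). Without scaling the 36 loci gave 0 higher and 22 lower calls, beside 46.3% of all loci lower, while the median of all loci moved from 0.0776 to −0.213.

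Other genes of matrix proteolysis were counted in the same fits. Of 16 regulators and activators, all tested, 1 was higher in the niche in 4T1 (beside 0.595% of all loci), 1 in CT26 (beside 0.672% in either direction) and 3, Plat, Pcsk5 and Plaur, over both models (beside 1.5%). Plat, tissue plasminogen activator, had 555, 676 and 661 bp in 4T1 distal and 1496, 2272 and 2866 bp in 4T1 niche (1.05 ± 0.21, limma, adjusted p = 0.0494). Pcsk5, a proprotein convertase, had 1844, 1810 and 1911 bp in CT26 distal and 3330, 2963 and 3132 bp in CT26 niche (0.40 ± 0.08, limma, adjusted p = 0.0454). Plaur, the urokinase receptor, was higher over both models (0.50 ± 0.09, limma, adjusted p = 0.0261), with 1668 to 2269 bp in 4T1 distal, 3715 to 4292 bp in 4T1 niche, 1227 to 1794 bp in CT26 distal and 1867 to 2672 bp in CT26 niche. In each of these pairs of groups the niche libraries lay above the distal ones in bp as called, beside 27.5% of all loci in 4T1 and 33.5% in CT26.

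Of 14 substrate genes, 11 were tested and 1, the fibrillin gene Fbn1, was higher in the 4T1 niche (beside 0.595% of all loci), with 746, 701 and 559 bp in distal and 1980, 3395 and 1488 bp in niche libraries (1.02 ± 0.19, limma, adjusted p = 0.0356). Of the 7 Adamts-like genes and the 9 Adam sheddases, 0 passed in either model (limma, adjusted p), and 1 of each had an unadjusted p under 0.05 in 4T1, with 0 and 2 in CT26. Their median differences in 4T1 were −0.11 and 0.03, beside 0.16 for the regulators, 0.05 for the substrates and −0.05 for all loci. Between the models, on scaled lengths, Thsd4 (−0.23), Papln (−0.39), Adam17 (−0.26), Thbs1 (−0.27) and Lrp1 (−0.34) were lower in CT26, and Col1a1 (0.25) and Vcan (0.27) were higher (limma, adjusted p between 0.00973 and 0.0471), beside 4.92% of all loci lower and 19.2% higher.

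Markers of AT2 cells and of cells that a sort could carry along were read in the same fits. All 12 AT2 marker loci were tested, and their summed length was 63.4 to 81.3 kb in 4T1 distal, 75.0 to 85.0 kb in 4T1 niche, 49.0 to 56.5 kb in CT26 distal and 54.4 to 66.0 kb in CT26 niche. Over both models 4 of the 12 had a positive niche difference, with a median of −0.07, beside −0.04 over all loci, and 1, the surfactant protein gene Sftpb, passed (−0.36 ± 0.07, limma, adjusted p = 0.0249). Of 8 fibroblast markers, 6 were tested and Dcn had no peak. Their sums were 5.09 to 8.15, 8.94 to 10.3, 3.91 to 5.16 and 6.36 to 11 kb in the same order of groups. These were higher in every niche than in every distal library of a model. In 4T1, 5 of the 6 had a positive difference, with a median of 0.49, and 0 passed and 1 had an unadjusted p under 0.05. In CT26, 6 of 6 were positive, with a median of 0.41, and 0 passed and 1 had an unadjusted p under 0.05. Over both models 5 of 6 were positive, with a median of 0.43, and 0 passed and 3 had an unadjusted p under 0.05 (limma). For 6 endothelial markers, of which 5 were tested and Emcn had no peak, the sums were 10.1 to 10.2, 13.3 to 17.4, 6.66 to 8.6 and 9.0 to 11.9 kb, and over both models 3 of the 5 had a positive niche difference, with a median of 0.13, of which 1, Pecam1, passed (0.70 ± 0.16, limma, adjusted p = 0.0432). Sums for 8 macrophage markers (5 tested, no peak at Marco and Adgre1) were 8.94 to 11.1, 10.7 to 11.8, 7.15 to 8.47 and 8.26 to 11 kb. Over both models 3 of the 5 had a positive niche difference, with a median of 0.02, and 0 passed. Sums for 6 neutrophil markers (3 tested, no peak at S100a9) were 1.9 to 2.3, 2.27 to 3.4, 0.896 to 1.59 and 1.62 to 2.06 kb. Over both models 3 of these 3 had a positive niche difference, with a median of 0.14, and 0 passed. Adamts2, Timp1 and Fbn1 were higher in the 4T1 niche on scaled lengths. The fibroblast and endothelial sums were also higher there, in unscaled kb. On scaled lengths the 4T1 medians were 0.49 for the fibroblast markers (5 of 6 positive) and 0.05 for the endothelial markers (5 of 5 positive). The 4T1 median over all loci was −0.05, and 0 of these markers passed in 4T1 (limma, adjusted p). The part of such cells in these results was not tested.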

How the data were processed

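For each of the 12 libraries the authors deposited 1 broad-peak file with GRCm38 positions. MACS2 and bedtools are named in the submitters' processing notes; no version is, and the aligner is not given in the sources used here. Of the deposited columns, start and end (other: positions in bp), the fold enrichment over background (a ratio), −log10 p and −log10 q were used, and the integer score the authors' caller wrote was not. The smallest deposited −log10 q was 1.

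Only the 19 autosomes and X were used. Peaks that overlapped by at least 1 bp were merged over libraries into regions. For each protein-coding gene of the RefSeq GRCm38.p6 table, the length under peaks in the gene and 10 kb each side was summed, scaled to the mean total covered length, increased by 500 bp and log2 transformed. Loci were tested if 3 or more libraries had a peak there (16819), by limma 3.58.1 under R 4.3.3 with a mean per group, eBayes with trend and 8 residual degrees of freedom, with Benjamini-Hochberg adjustment over all of them and a threshold of 0.05. The fit was tested on simulated data.

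Groups came from the sample titles. Per-library values are given for members that passed in any of the 5 comparisons, the 3 with the smallest p in each, and 10 always given; regions are named where niche-only, distal-only or held by 1 model only. Other members given by library were chosen after their values or regions were seen. The members, lists and rules were chosen with earlier results of these data known. The closing section gives the alternatives tried. Start-site windows and motifs came from the RefSeq promoter table of the same build. Proteins and exon positions were not used here.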

Additional observations from a re-analysis of the deposited data

Results flagged for a closer look

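At Adamts17 the scaled niche lengths lay above all distal ones in 4T1 (0.29 on the log2 scale) and below all distal ones in CT26 (−0.24). In bp, the 4T1 distal libraries had 1858, 2025 and 2038, the 4T1 niche libraries 2713, 2706 and 3339, the CT26 distal libraries 1770, 1612 and 2000, and the CT26 niche libraries 1786, 1624 and 1888, so the CT26 groups overlapped before scaling. The difference between the models did not pass (limma, interaction, adjusted p = 0.27). With lists shortened to equal length it was 0.03, the reverse of the −0.53 with all peaks. The length added in the 4T1 niche lay in the niche-only region 28212 bp from the gene's start (chr7:66867947-66868888) and in 2 regions held by 1 and 2 niche libraries.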

How the results depend on the processing

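Peak lists give calls and not read depth, so a weak site just under the caller's threshold in the shorter lists cannot be told apart from a closed one. The cause of the changes below was not tested.

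In 4T1 the 2 members that passed became 0 of 42 with 50 kb flanks (beside 171 of 18326 loci). At a −log10 q of at least 5 they were 0 of 30 (beside 44 of 15655). With lists shortened to equal length they were 0 of 32 (beside 46 of 16056). With a peak in at least 6 libraries 1 of 34 passed (beside 45 of 16400). With each library left out in turn they were 0 to 2, the 0 without 4T1 niche replicate 2 (beside 26 of 16736). At a −log10 q of at least 5 and with lists of equal length, Timp1 had no peak in any library, so no test of it could be made. In CT26 the count of 0 became 3 without scaling (beside 2030 of 16819 loci). Over both models the count of 3 became 1 with 2 kb flanks (Adamts2, beside 220 higher and 160 lower of 15817 loci). Without scaling it was 11 (beside 3956 and 25 of 16819). At a −log10 q of at least 5 it was 1, Adamts8, which was not among the 3 (beside 155 and 37 of 15655). With lists of equal length it was 0 of 32 (beside 72 and 26 of 16056). With 50 kb flanks the count stayed 3 (beside 474 and 247 of 18326). These were Adamts1, Mmp19 and Timp4, so none of the first 3 was kept. With each library left out the count was 1 to 4, the 1 without 4T1 niche replicate 2. Between the models the count of 5 became 22 without scaling (beside 21 loci higher and 7786 lower of 16819). At a −log10 q of at least 5 it was 9 of 30 (beside 5251 and 1130 of 15655), with Adamts1 and Mmp19 kept from the 5. With lists of equal length it was 0 of 32 (beside 50 and 44 of 16056). With 50 kb flanks the count stayed 5 (beside 2608 and 874 of 18326), but of the first 5 only Mmp27 was kept. With each library left out it was 2 to 6: 3 without 4T1 distal 1, 4T1 niche 2 or CT26 distal 3, and 2 without CT26 niche 2. The interaction count of 0 became 1 in limma without trend (Timp1, beside 14 loci higher and 41 lower of 16819). The 4T1 niche-only count of 13 became 2 at a −log10 q of at least 5, in the Timp2 and Mmp21 loci (2.06%, beside 1.99% of all regions). With lists of equal length it was 1, in the Mmp21 locus (0.901%, beside 0.924%). None of these regions was among the 13. With a library left out the count was 13 to 16. The CT26 niche-only count of 1 became 6 with 50 kb flanks (1.72%, beside 1.56% of all regions). At a −log10 q of at least 5 it was 2 (2.06%, beside 2.09%). Where peaks had to cover 25% of a region it was 0 (beside 1.76%). It was 1 to 5 with a library left out: 5 without CT26 distal 1, 4 without CT26 distal 3 or CT26 niche 3, and 3 without CT26 niche 2. The CT26 distal-only count of 1 became 0 with 2 kb flanks, at a −log10 q of at least 5 and at 25% cover. In that order, the shares of all regions were 0.136%, 0.0793% and 0.155%. The 4T1 distal-only count of 0 became 2 with 50 kb flanks (0.575%, beside 0.143%).

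The direction reversed between the models at Mmp19 without scaling (−0.0309) and at Adamts6 with 50 kb flanks (−0.0307), without scaling (−0.0360) and with lists of equal length (−0.0220). It reversed in the interaction at Adamts17 (0.0319) and Adamts2 (0.0713) with lists of equal length. For the members given by library, 310 of the other values kept direction and side of the threshold, 55 lost the call and 1 gained it.

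With the replicate number as a replicate block, 1 member passed in 4T1 (Adamts2, adjusted p = 0.0112, limma; Timp1 0.0522) and 1 over both models (Adamts2), with Timp1 at 0.0655 and Mmp10 at 0.0632. Of all 16819 loci, 31 passed in 4T1, and over both models 75 were higher and 6 lower. Same-numbered libraries deviated together by r = 0.0288 to 0.0891 over loci in 4T1, where all 6 libraries correlated best with their own number, and by −0.0439 to 0.0177 in CT26, where 0 of 6 did. The labels do not say that the numbers pair distal and niche samples, so the block is given here only.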
